A study of Homo sapiens with 6 samples.

Results

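The ERBB receptors and their EGF-family ligands were represented by 10 genes: the receptors EGFR, ERBB2, ERBB3 and ERBB4, and the ligands AREG (amphiregulin), EREG (epiregulin), TGFA (transforming growth factor α), HBEGF (heparin-binding EGF-like growth factor), NRG1 (neuregulin) and BTC (betacellulin). They were chosen by name from the 58884 genes of the deposited table, through the GENCODE symbol of each Ensembl identifier. Of the 10 genes, 9 had enough counts to be tested among 16059 genes, and ERBB4 did not. RNA was sequenced from 3 libraries of DLD1 parental cells and from 3 libraries of DLD1 cells whose p85β carries K477A and R478A (p85β KR-AA). DLD1 is a colorectal cancer line with a helical domain mutation in PIK3CA, which both groups share. p85β, the product of PIK3R2, is a regulatory subunit of PI3-kinase, and the 2 changed residues lie in its nuclear localization sequence. The changes were knocked into the endogenous PIK3R2 locus by CRISPR/Cas9 and homologous recombination, and the cells were grown out as clones. The labels name neither the clone behind each mutant library nor separate cultures, so that p-values measure the spread between these libraries, which may be technical, and an effect of the mutation cannot be told apart from a difference between clones. The study asked whether nuclear p85β affects gene expression.

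ERBB receptors are tyrosine kinases of the cell surface that pair with each other on ligand binding and pass the signal to the RAS and PI3-kinase pathways. EGFR binds AREG, EREG, TGFA, HBEGF and BTC, ERBB3 and ERBB4 bind neuregulins, and ERBB2 has no known ligand and acts as a partner of the others. ERBB3 has little kinase activity of its own and carries many binding sites for the p85 subunits of PI3-kinase. The ligands are made as membrane-bound precursors and are released by sheddases, and in intestinal epithelium they support growth and repair.

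Library totals ran from 20301396 to 26712816 estimated counts, and a level of 3 counts, taken as the floor of detection, was worth 0.0817 to 0.218 CPM, the unit of counts scaled to a TMM-normalised library size. The groups stood far apart, with Spearman correlations across genes of 0.74 to 0.813 between libraries of different groups and 0.982 to 0.996 within a group. Genes that differed 3-fold or more at an adjusted p-value under 0.01 were called up-regulated or down-regulated, and these made up 28.6% and 17.6% of the tested genes. At the same adjusted p-value with no fold threshold, 41.6% of genes rose and 32.7% fell. The counts of marker genes moved with the groups as well. Of 12 colon epithelium markers 2 were up-regulated, CDH1 (means of 97.2 and 343 CPM) and CDH17 (6.59 and 28.4 CPM), and 6 down-regulated. With the length offset CDH1 no longer reached 3-fold (log2 fold change 0.60). The summed level of the 12 markers was 57180 to 79190 CPM in parental and 8804 to 10300 CPM in mutant libraries. Most of it came from the keratins KRT8 (means of 37340 and 4450 CPM), KRT18 (18420 and 2534 CPM) and KRT19 (11430 and 1738 CPM). The 6 down-regulated markers were these 3 keratins, CDX2 (means of 346 and 87.9 CPM), VIL1 and LGALS4. With length and GC offsets KRT18 (-1.49), KRT19 (-1.03) and CDX2 (-1.45) no longer reached 3-fold, while KRT8, VIL1 and LGALS4 still did. EPCAM fell by less than 3-fold (means of 312.5 and 172 CPM). EPCAM, CDH1 and CDX2 were still counted in every library, and CDX1 was at 3 counts or fewer throughout. Of 14 mesenchyme markers 6 were up-regulated, led by VIM and FN1, and their sum was 123.9 to 142.2 CPM against 6597 to 7541 CPM, while COL1A2, THY1, PDGFRA and POSTN had 3 counts or fewer in every library. Among neuron markers, NEFL and NEFM were up-regulated from no count in any parental library, all 6 libraries were at 0 counts for DCX and ELAVL4, and TUBB3, the most abundant of these markers in parental libraries, fell from a mean of 561 to 211 CPM (its sign turned with offsets for length and GC content). The part of these differences in the results on the ERBB genes was not tested, and in bulk RNA fewer cells of a type and less RNA per cell cannot be told apart.

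EGFR and NRG1 were the up-regulated genes of the family, and no member was down-regulated. EREG and TGFA rose by less than 3-fold and ERBB2 fell by less than 3-fold, while ERBB3, AREG, HBEGF and BTC did not pass the test in either direction. Thus 2 of the 9 tested members were up-regulated, beside 28.6% of all tested genes, and 0 were down-regulated, beside 17.6%. DESeq2 also called 0 down-regulated members, and ERBB2 was the 1 member that was lower at an unadjusted p-value under 0.05 in edgeR. At an adjusted p-value under 0.01 with any fold, 4 rose, beside 41.6% of all genes, and 1 fell, beside 32.7%. All p85β KR-AA libraries lay above all parental libraries in 5 members, beside 47% of tested genes, and below them in 1 member, beside 36.5%. The median log2 fold change was 0.64 over the 9 members and 0.32 over all tested genes. Scaling by library totals in place of TMM raised the median over all genes by 0.921 and turned the sign of AREG, so the fold changes below are relative to TMM scaling.

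**Figure D1:**
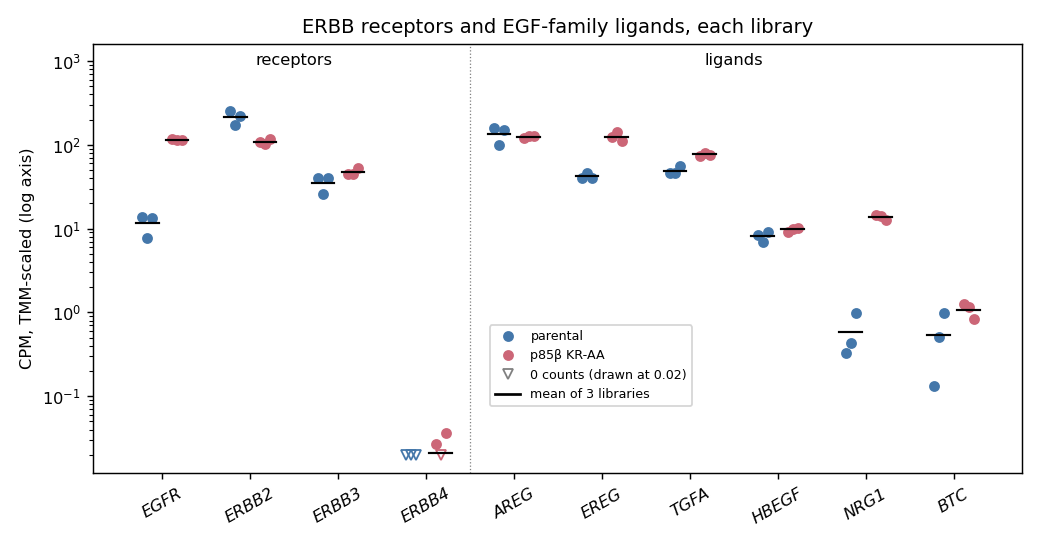
Level of each ERBB receptor and ligand gene in CPM (TMM-scaled, log axis), with 1 point per library, 3 parental and 3 p85β KR-AA libraries per gene, and a bar at the mean of each group. EGFR and NRG1 are separated most widely, with means of 11.7 and 114 CPM for EGFR and of 0.585 and 13.9 CPM for NRG1, while AREG, HBEGF and BTC overlap between the groups.

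Among the receptors, EGFR (ENSG00000146648), which binds most of the ligands measured here, was counted 209, 106 and 217 times in parental libraries and 4267, 3281 and 3100 times in p85β KR-AA libraries. In CPM these were 13.9, 7.71 and 13.4 against 116, 114 and 113. Every mutant library was thus far above every parental library, and the 3 mutant libraries differed little. EGFR was up-regulated 9.78-fold, from 11.7 ± 3.42 to 114 ± 1.73 CPM (SD, n = 3 each). Its log2 fold change was 3.29 with a standard error of 0.20 and an adjusted p-value of 1.54e-08 (edgeR quasi-likelihood test, Benjamini-Hochberg adjustment). EGFR lies on chromosome 7 (55086710 to 55279321, plus strand, GRCh37), and its antisense neighbour EGFR-AS1 had at most 8.03 counts in any library.

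ERBB2 (ENSG00000141736), the ligandless partner receptor, had 254.5, 173 and 221 CPM in parental libraries and 108, 103 and 118 CPM in p85β KR-AA libraries. The groups did not overlap, and here the parental libraries were the high ones. ERBB2 fell 1.97-fold, from 216 ± 41.1 to 109.6 ± 7.35 CPM (SD, n = 3 each), with a log2 fold change of -0.98, a standard error of 0.15 and an adjusted p-value of 5.53e-05. It did not reach the 3-fold threshold, and with library totals in place of TMM its log2 fold change was -0.06 (adjusted p = 0.73). ERBB2 (chromosome 17, 37844167 to 37886679, plus strand) overlaps MIEN1 and PGAP3 on the other strand, with mean counts of 1380 and 465 in parental and 824 and 333 in mutant libraries. As the counting is not stated to use strand, reads of the overlapping parts cannot be told apart.

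ERBB3 (ENSG00000065361), the receptor with binding sites for p85, had 40.01, 25.7 and 40.4 CPM in parental libraries and 44.7, 45.4 and 52.6 CPM in p85β KR-AA libraries. All mutant libraries were above all parental ones, by a margin smaller than the gap between the parental libraries themselves. With a log2 fold change of 0.42, a standard error of 0.18 and an adjusted p-value of 0.0436, ERBB3 did not pass the threshold of 0.01. ERBB4 (ENSG00000178568), the other neuregulin receptor, had no count in parental libraries, which allows up to 0.185 to 0.218 CPM, and 1, 0 and 1 counts in p85β KR-AA libraries. It was not detectable above the floor in either group, and no fold is given. ERBB3 lies on chromosome 12 (56470583 to 56497289, plus strand) and ERBB4 on chromosome 2 (212240442 to 213403565, minus strand).

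The balance between receptors was described within each library by CPM per kilobase of the deposited gene length, on which genes can be compared. A ratio of 2 genes on this scale does not depend on how libraries are scaled. A change of a ratio or share between the groups still carries any relation of the fold change to gene length or GC content. With offsets for both, the log2 fold changes of ERBB3 (-0.70) and ERBB2 (-0.61) were close, while EGFR (2.01) stayed above them. The level of EGFR was 0.025, 0.0205 and 0.0278 times that of ERBB2 in parental libraries, and 0.494, 0.507 and 0.44 times in p85β KR-AA libraries. The groups were wide apart on this ratio, the lowest mutant library being 15.9 times the highest parental one. EGFR made up 2.12 ± 0.291% of the summed receptor level in parental and 26.5 ± 1.56% in mutant libraries (SD, n = 3 each). The share of ERBB2 was 87.0 ± 1.29% and 55.2 ± 0.936%, and that of ERBB3 was 10.9 ± 1.02% and 18.4 ± 0.851%. None of these shares overlapped between the groups, and an exact permutation test of 3 against 3 libraries cannot go below p = 0.1, so the shares are given without a test. Summed over the receptors, the level was 64.1, 43.1 and 56.8 CPM per kilobase in parental and 43.1, 41.9 and 46.2 in mutant libraries, and the groups overlapped. Per length ERBB2 was the receptor with the highest level in every library. Without division by length, EGFR was above ERBB2 in p85β KR-AA replicates 1 (116 and 108 CPM) and 2 (114 and 103 CPM) and below it in replicate 3 (113 and 118 CPM), with shares of 42.2% for EGFR and 40.3% for ERBB2 on average.

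Of the ligands that bind EGFR, AREG (ENSG00000109321) was the most abundant per length in both groups. It had 157.5, 100.2 and 149 CPM in parental libraries and 122, 129 and 126 CPM in p85β KR-AA libraries. The mutant libraries lay within the parental range, and the log2 fold change of -0.11 (standard error 0.16) had an adjusted p-value of 0.532. The sign of this value was not stable, as it was 0.80 with library totals in place of TMM, 0.82 with an offset for gene length and 0.000974 without parental replicate 1. HBEGF (ENSG00000113070), another ligand of EGFR, which also binds heparan sulfate, had 8.49, 6.84 and 9.24 CPM in parental libraries and 9.24, 9.91 and 10.2 CPM in mutant libraries, with a log2 fold change of 0.25 (SE 0.19, adjusted p = 0.23). BTC (ENSG00000174808), a ligand of EGFR and ERBB4, was close to the floor, with 2, 7 and 16 counts in parental and 46, 33 and 23 counts in mutant libraries. Its groups overlapped in CPM, and the log2 fold change of 0.97 (SE 0.49, adjusted p = 0.086) moved between 0.50 without parental replicate 1 and 1.73 without parental replicate 3.

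EREG (ENSG00000124882), a ligand of EGFR and ERBB4, had 39.8, 46.3 and 39.8 CPM in parental libraries and 124, 141 and 111 CPM in p85β KR-AA libraries. Each mutant library was above each parental library by a wide margin. EREG rose 2.99-fold, from 41.95 ± 3.81 to 125 ± 14.9 CPM (SD, n = 3 each), with a log2 fold change of 1.58, a standard error of 0.14 and an adjusted p-value of 3.47e-07. It therefore sat just under the 3-fold threshold. It passed that line when parental replicate 2 was left out (1.63 on the log2 scale), and likewise for mutant replicate 1 (1.60) or 3 (1.67). It also passed with library totals (2.51), with no filter on low counts (1.63) and with at least 10 counts in every library (1.78). With an offset for both gene length and GC content its sign turned (-0.58). TGFA (ENSG00000163235), another ligand of EGFR, had 46.2, 45.6 and 56.5 CPM in parental and 73.1, 81.0 and 76.7 CPM in mutant libraries, again with no overlap. TGFA rose 1.56-fold, from 49.4 ± 6.08 to 76.9 ± 3.96 CPM (SD, n = 3 each), with a log2 fold change of 0.64, a standard error of 0.14 and an adjusted p-value of 7.85e-04.

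NRG1 (ENSG00000157168), the neuregulin that binds ERBB3 and ERBB4, had 5, 6 and 16 counts in parental libraries and 540, 408 and 352 counts in p85β KR-AA libraries. The parental libraries were above the floor but low, at 0.332, 0.436 and 0.986 CPM, and the mutant libraries had 14.7, 14.2 and 12.8 CPM. NRG1 was up-regulated 23.1-fold, with a log2 fold change of 4.53, a standard error of 0.31 and an adjusted p-value of 3.97e-08. It lies on chromosome 8 (31496738 to 32713184, plus strand). NRG1 thus had the largest fold change of the 9 tested members, yet per length it reached 5.53 ± 0.390 CPM per kilobase (SD, n = 3), against 131 ± 3.63 for AREG in the same libraries, or 1.16 and 102 with canonical transcript lengths. Of its 2 receptors, ERBB3 was present in both groups and ERBB4 was not detectable.

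In order of level per length, the parental cells had AREG first (142 CPM per kilobase), then TGFA (50.2), ERBB2 (47.5), EREG (9.09), ERBB3 (5.98), HBEGF (3.47), EGFR (1.18), NRG1 (0.232), BTC (0.205) and ERBB4 at 0. Neighbours in this order did not overlap between libraries, except TGFA with ERBB2 and NRG1 with BTC. In the p85β KR-AA cells the order was AREG (131), TGFA (78.1), EREG (27.2), ERBB2 (24.1), EGFR (11.6), ERBB3 (8.03), NRG1 (5.53), HBEGF (4.15), BTC (0.407) and ERBB4 (0.00175), and here only EREG and ERBB2 overlapped. In this order EGFR moved above HBEGF and ERBB3, and NRG1 above HBEGF. The ligands summed to 224, 164 and 227 CPM per kilobase in parental and 239, 258 and 243 in mutant libraries, with no overlap. Within that sum AREG went from 68.7 ± 4.89% to 53.3 ± 0.945%, EREG from 4.58 ± 1.32% to 11% ± 1.00, TGFA from 24.8 ± 3.63% to 31.7 ± 0.503% and NRG1 from 0.112 ± 0.0574% to 2.24 ± 0.184% (SD, n = 3 each), as the stacked bars of shares show. EREG stood at 0.0523, 0.0958 and 0.0552 of the AREG level in parental libraries and at 0.211, 0.226 and 0.183 in mutant libraries, which do not overlap. This difference was not kept under the offsets. The log2 fold changes of EREG and AREG were 0.43 and 0.82 with the length offset, and -0.58 and -0.57 with length and GC offsets. The order and sums depend on the length used, since the deposited lengths of TGFA (985 bases) and NRG1 (2516 bases) are far below those of the canonical transcripts (4117 and 11983 bases). With canonical lengths TGFA came below ERBB2 in parental libraries (12.01 and 47.4 CPM per kilobase) and below both EREG and ERBB2 in mutant libraries (18.7 against 27.2 and 24.1), and NRG1 stayed below HBEGF (1.16 and 4.15), while EGFR still moved above HBEGF and ERBB3. The ligand sums were then 151, 105 and 148 CPM per kilobase in parental and 149, 160 and 150.0 in mutant libraries, which overlap. TGFA then made up 9.08% and 12.2% of the ligand level in parental and mutant libraries, EREG 7.02% and 17.7%, and NRG1 0.0362% and 0.758%.

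Among the members, 3 are neighbours on chromosome 4, where EPGN (epigen), a further ligand of EGFR, lies beside them, and EPGN, EREG, AREG and BTC together span 546 kb. EREG is at 75230862 to 75254466 and AREG at 75310853 to 75320722 on the plus strand, BTC at 75669969 to 75719733 on the minus strand, and EPGN at 75174187 to 75182506 on the plus strand. Although next to each other, these genes were not called alike with TMM scaling and no offset. EPGN had 0, 1 and 1 counts in parental libraries and 1405, 1061 and 686 counts in p85β KR-AA libraries, a ratio of 764 (95% counting interval 211 to 6310, Clopper-Pearson, counting error only). EREG rose 2.99-fold, and AREG and BTC did not pass the test. With the length offset, and then with length and GC offsets, only EPGN stood apart, at log2 fold changes of 10.1 and 8.98. EREG was then at 0.43 and -0.58, AREG at 0.82 and -0.57, and BTC, close to the floor, at 0.83 and -0.49. Per length, EPGN went from 0.0375 ± 0.0328 to 27.9 ± 6.12 CPM per kilobase (SD, n = 3 each), and its ratio to EREG was 1.19, 1.01 and 0.868 in the mutant libraries, or 0.53, 0.452 and 0.387 with canonical transcript lengths. To show what lies upstream of these neighbours, the 120 bases before the start of each gene are printed below 5′ to 3′ on the gene's own strand, together with those before the first annotated start of EGFR, the receptor that these ligands bind. The sequences are from RefSeq (GRCh38.p14), placed on GRCh37 by exact match, and capitals mark matches on either strand to the 4 motifs described after them.
EPGN, chr4:75174067-75174186, plus strand: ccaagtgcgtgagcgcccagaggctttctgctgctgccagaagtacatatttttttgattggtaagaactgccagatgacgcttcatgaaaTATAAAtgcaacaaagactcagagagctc
EREG, chr4:75230742-75230861, plus strand: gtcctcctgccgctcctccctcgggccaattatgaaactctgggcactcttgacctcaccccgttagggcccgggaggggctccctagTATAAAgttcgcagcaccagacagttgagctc
AREG, chr4:75310733-75310852, plus strand: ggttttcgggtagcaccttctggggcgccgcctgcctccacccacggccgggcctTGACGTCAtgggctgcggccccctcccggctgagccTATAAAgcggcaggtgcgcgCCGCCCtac
BTC, chr4:75719734-75719853, minus strand: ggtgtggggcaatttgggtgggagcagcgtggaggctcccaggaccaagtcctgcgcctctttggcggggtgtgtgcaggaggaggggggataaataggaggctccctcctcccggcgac
EGFR, chr7:55086590-55086709, plus strand: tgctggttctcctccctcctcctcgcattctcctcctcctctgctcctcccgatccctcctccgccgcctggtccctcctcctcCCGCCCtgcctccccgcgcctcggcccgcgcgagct

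EPGN, EREG and AREG each hold TATAAA, the letters of a TATA box, in the printed 120 bases, as do 5.63% of 35116 windows of that length before a gene's start. The AREG window also holds TGACGTCA, the letters of a cyclic AMP response element, found in 1.29% of the windows. GGGCGG, the letters of a GC box, is in the AREG and EGFR sequences and in 34.0% of all windows. TGANTCA, the letters of an AP-1 site, is in none of the 5 printed sequences and in 3.34% of all windows. No pattern contains another, and a match describes only the letters. The 250 bases before the start had a GC content of 38.0% in EPGN, 58.0% in EREG, 65.2% in AREG, 62.0% in BTC and 73.6% in EGFR, beside a median of 58.0% over all windows. The AREG sequence matched 2 places on chromosome 4, and the place next to the annotated AREG gene is given. Windows were matched for 8 members, and ERBB3 and NRG1 were not used here.

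The fold changes of the members were read against gene length, because length moved with the difference between the groups. Genes of at most 1000 bases had a median log2 fold change of -1.12, with 10.5% up-regulated and 39.4% down-regulated, whereas in genes over 8000 bases the median was 2.41, with 65.4% up-regulated and 1.88% down-regulated. EGFR, at 9905 bases, belongs to the longest class, and its log2 fold change of 3.29 exceeded that median by less than 1. ERBB2, ERBB3 and EREG belong to genes of 4000 to 8000 bases, whose median was 1.45, and of these EREG (1.58) was near the median while ERBB3 (0.42) and ERBB2 (-0.98) were under it. NRG1 lay far above the median of 0.24 for genes of 2000 to 4000 bases, and HBEGF (0.25) at that median. AREG (-0.11) and TGFA (0.64), both under 1000 bases, were above the median of their class. These classes use the deposited lengths, and the canonical transcripts of TGFA (4117 bases) and NRG1 (11983 bases) would fall among genes of 4000 to 8000 and over 8000 bases, whose medians of 1.45 and 2.41 lie above the value of TGFA and below that of NRG1.

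With an offset that removes the relation to length in each library, EGFR kept a log2 fold change of 1.02 (adjusted p = 4.45e-05) and was no longer up-regulated by the 3-fold rule. With an offset for both length and GC content it was 2.01 and up-regulated. NRG1 was up-regulated under both, at 4.47 and 3.80. TGFA was at 1.57 and 2.53, and with both offsets it passed the 3-fold rule. The offsets used the deposited lengths, 985 bases for TGFA and 2516 for NRG1, far below their canonical transcripts (4117 and 11983 bases). Offsets with canonical lengths were not fitted, so the offset values of these 2 genes hold only for the deposited lengths. ERBB2 was at -2.08 with the length offset, past the 3-fold rule, and at -0.61 with both. ERBB3 turned negative, at -1.14 and -0.70, and EREG was at 0.43 and -0.58. The offsets remove any relation of the fold change to length or GC content, whatever its source, and whether that relation arose in the cells or in the libraries was not tested.

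**Figure D2:**
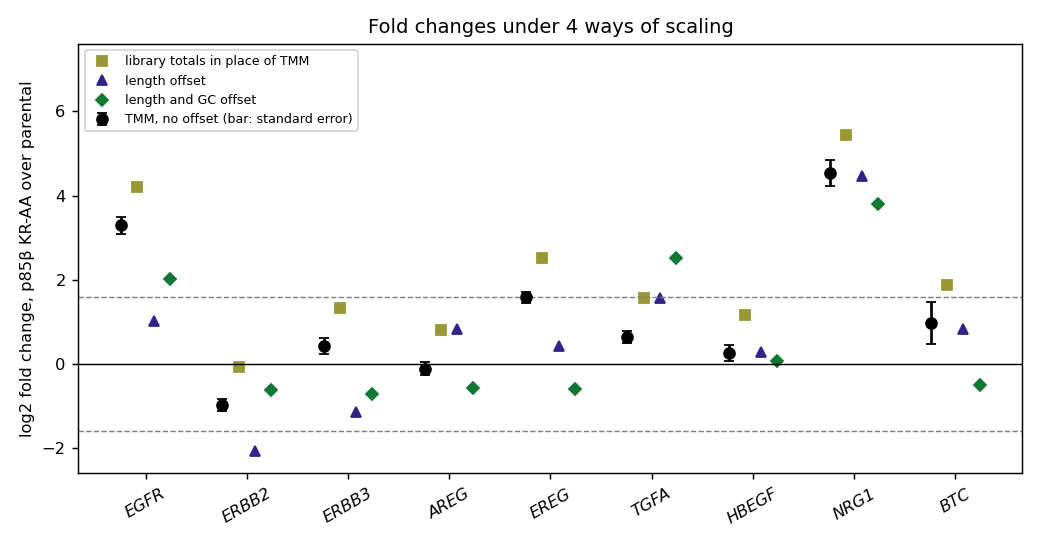
Log2 fold change (p85β KR-AA over parental) of the 9 tested members with TMM scaling (circles, bars are standard errors), with library totals (squares), with a length offset (triangles) and with a length and GC offset (diamonds). Dashed lines mark a 3-fold change, and the offsets used the deposited lengths, which are short for TGFA and NRG1. NRG1 stays above the upper line in all of them (3.80 to 5.44), EGFR in all but the length offset (1.02), and the sign turns for ERBB3, AREG, EREG and BTC.

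Beyond the members, other genes of the pathway were taken as 5 lists with 53 genes, of which 52 were tested, 22 were up-regulated and 3 down-regulated, beside 28.6% and 17.6% of all tested genes. Without the fold threshold 29 rose, 10 fell and 13 did neither, beside 41.6% and 32.7% of all genes that rose and fell. Their median log2 fold change was 1.16, beside 0.32 over all genes, and 0.281 with the length offset, where 9 were up-regulated and 4 down-regulated, beside 18.3% and 18.8% of all genes with that offset. Of the other ligands, 3 of 4 tested genes were up-regulated. EGF, the ligand that gave the family its name, had 0, 0 and 2 counts in parental and 176, 136 and 124 counts in mutant libraries, a ratio of 106 (95% counting interval 29.1 to 875). These libraries were all well above the floor, at 4.80, 4.73 and 4.51 CPM, though per length EGF reached only 0.959 ± 0.0303 CPM per kilobase (SD, n = 3). NRG4, a ligand of ERBB4 named here after its values were seen, had 2, 4 and 0 counts against 78.8, 61.2 and 40.8, with a log2 fold change of 3.79 (SE 0.57, adjusted p = 4.58e-05). NRG2 had a log2 fold change of 0.53 (adjusted p = 0.165), and NRG3 had no count in any library.

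Of 8 sheddases and iRhoms, the enzymes that cut ligand precursors and their cofactors, 4 were up-regulated (28.6% of all genes were), none was down-regulated (17.6% of all genes) and 1 fell by less than 3-fold. Under the length offset 1 was up-regulated, beside 18.3% of all genes. ADAM10, the sheddase of EGF and BTC, had 8.63, 10.6 and 9.55 CPM in parental and 55.6, 60.1 and 39.7 CPM in mutant libraries, a log2 fold change of 2.43 (SE 0.19, adjusted p = 1.16e-07). All mutant libraries were far above the parental ones, but with the length offset the value was -0.01 and with both offsets -0.68, ADAM10 being 11158 bases long. ADAM12 had no count in parental libraries and 31, 30 and 35 in mutant libraries, at least 4.83-fold higher against a floor of 3 counts per library. ADAM17, the main sheddase of AREG, EREG, TGFA and HBEGF, was named after its values were seen. It had 11.8, 12.8 and 14.5 CPM in parental and 52.1, 54.0 and 52.4 CPM in mutant libraries, and was up-regulated with a log2 fold change of 2.02 (SE 0.15, adjusted p = 6.99e-08) but was at 0.99 with the length offset and at 0.08 with both offsets (adjusted p = 0.56).

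Of 13 adaptors and proximal effectors, 5 were up-regulated and none was down-regulated, beside 28.6% and 17.6% of all genes, and 2 fell by less than 3-fold. Under the length offset 2 were up-regulated, beside 18.3% of all genes. The largest changes were in SOS2 and SOS1, exchange factors that load RAS with GTP, with log2 fold changes of 3.87 (standard error 0.39) and 3.34 (0.30) and adjusted p-values of 1.14e-06 and 3.65e-07. SOS2 had 3, 7 and 14 counts in parental and 308, 276 and 151 in mutant libraries. With the length offset SOS2 passed the 3-fold rule (2.42) and SOS1 did not (1.241), and with both offsets neither did (1.49 and 0.40). GRB2, the adaptor that links SOS to the receptors, was named after its values were seen and fell by 0.81 on the log2 scale (SE 0.12, adjusted p = 4.58e-05), from 183 ± 14.2 to 104 ± 4.37 CPM (SD, n = 3 each), but its sign turned with library totals (0.11, adjusted p = 0.45).

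Of 15 negative regulators, 7 were up-regulated and 2 down-regulated, beside 28.6% and 17.6% of all genes, and without the fold threshold 10 rose and 4 fell, beside 41.6% and 32.7%. With the length offset 3 were up-regulated and 3 down-regulated, beside 18.3% and 18.8%. CBL and CBLB, ubiquitin ligases that send active EGFR to degradation, were up-regulated, with 4.37 ± 0.908 and 61.5 ± 3.51 CPM for CBL and 1.83 ± 0.615 and 16.6 ± 1.46 CPM for CBLB in parental and mutant libraries (SD, n = 3 each). Their log2 fold changes were 3.81 (standard error 0.19) and 3.16 (0.25), with adjusted p-values of 5.36e-09 and 1.14e-07. The epithelial member of the same ligase family, CBLC, was down-regulated, from 106 ± 18.7 to 12.9 ± 0.941 CPM, with a log2 fold change of -3.04 (SE 0.16, adjusted p = 7.74e-09). STUB1, a ubiquitin ligase that works with chaperones and acts on immature ERBB2, was down-regulated from 632 ± 139 to 72.8 ± 2.80 CPM, with a log2 fold change of -3.12 (SE 0.17, adjusted p = 7.48e-09). With the length offset CBL was at 1.41 and no longer passed the 3-fold rule, while CBLB was at 2.81, CBLC at -2.50 and STUB1 at -2.41. With both offsets CBL (1.47), CBLC (-1.10) and STUB1 (-1.04) did not pass the rule, and CBLB (1.84) did.

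Of 12 genes of receptor endocytosis and recycling, 3 were up-regulated and 1 was down-regulated, beside 28.6% and 17.6% of all genes, and without the fold threshold 5 rose and 3 fell, beside 41.6% and 32.7%, so these shares were near those of all genes or under them. With the length offset 0 were up-regulated and 1 was down-regulated, beside 18.3% and 18.8%. EPS15, an adaptor of clathrin-coated pits that is phosphorylated by EGFR, had 3.12, 2.26 and 4.13 CPM in parental and 18.6, 20.8 and 13.5 CPM in mutant libraries, a log2 fold change of 2.47 (SE 0.25, adjusted p = 1.38e-06). STAM2, which helps sort ubiquitinated receptors to lysosomes, had a log2 fold change of 1.90 (SE 0.28, adjusted p = 4.04e-05). EPN1, another endocytic adaptor, was down-regulated with a log2 fold change of -1.74 (SE 0.13, adjusted p = 7.21e-08), and not by the 3-fold rule with library totals (-0.81). With the length offset EPS15 was at 1.12 and STAM2 at 0.44, neither past the 3-fold rule, and EPN1 was at -1.87. With both offsets STAM2 turned negative (-0.54), and EPS15 (0.11) and EPN1 (-0.66) did not pass the 3-fold rule.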

How the data were processed

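RNA-seq of 3 DLD1 parental and 3 p85β KR-AA libraries was analysed, grouped by the genotype and replicate number in the sample titles (the source label of 2 mutant libraries gives another second residue). Trimming of the read pairs used SeqPrep and Sickle, per the study's methods. The submitters' processing notes name HISAT2 2.1.0, RSEM 1.3.1, DESeq2 1.24.0 and the hg18 build, with no order or role. The authors deposited estimated counts (expected counts, not normalized) and a gene length for 58884 Ensembl genes. The table carries no coordinates, and positions come from GENCODE 44 on GRCh37. Symbols were matched for 56745 genes.

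Whole counts had been assumed, so the estimated counts were rounded before the test, which was the quasi-likelihood F test of edgeR 4.0.16 (R 4.3.3) with no covariate. Low genes were removed with filterByExpr (minimum count 10, minimum total 15), scaling was by TMM, and Benjamini-Hochberg adjustment ran over 16059 genes. SE is the standard error of the log2 fold change implied by the test, its absolute value divided by the square root of the F statistic. Calls needed a 3-fold difference with an adjusted p-value under 0.01, as in the study. "Rose" and "fell" mean an adjusted p-value under 0.01 at any fold. CPM used TMM-scaled totals of 1 count = 0.0272 to 0.0727 CPM. Intervals and floors cover counting error only. Levels per kilobase used the deposited length.

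The members and gene lists were chosen with earlier results of these data known. All members are named, and of each pathway list up to 2 up-regulated and 2 down-regulated genes with the largest fold change. Others are marked as named later. Alternatives were DESeq2 1.42.0, library totals, no filter, at least 10 counts in every library, a replicate block, each library left out in turn, and offsets for gene length or for length and GC content (a robust spline with 5 degrees of freedom per library and property). Canonical transcript lengths, member counts without the fold threshold and ratios between genes were added after seeing the data. The code was checked on simulated counts. Figures were drawn with matplotlib 3.10.9. The neuron marker list is reported in part, as 1 of its genes is not reported here. Other data of the study were not analysed here.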

Additional observations from a re-analysis of the deposited data

How the results depend on the processing

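EGFR was up-regulated in 12 of 13 alternatives and NRG1 in all 12 that could be fitted, as it fails a filter of at least 10 counts in every library. HBEGF passed the 3-fold rule in none, and the log2 fold change of ERBB2 was negative in all 13 (-2.08 to -0.06). With library totals, 7050 of the 16059 tested genes were up-regulated and 976 down-regulated (87.8% of calls up, against 61.9% with TMM). Of the 9 tested members, 4 were then up-regulated (EGFR, NRG1, EREG and BTC), and 8 rose and 0 fell at any fold. The median log2 fold change of the members was 1.55 and AREG was at 0.80. The filter of at least 10 counts gave 2898 up-regulated genes and AREG at 0.0853, and no filter a member median of 0.85. The length offset gave 2945 up-regulated genes (49.4% of calls) and 3020 down-regulated genes, or 18.3% and 18.8% of the tested genes. With it 1 member was up-regulated and 1 down-regulated, 2 members fell at any fold, and the member median was 0.82. The log2 fold changes were -1.14 for ERBB3, 0.82 for AREG and -0.00902 for ADAM10. With length and GC offsets, 2215 of 15902 tested genes were up-regulated and 1605 down-regulated, 3 members fell at any fold, and the member median was -0.49. ERBB3 was then at -0.70, EREG at -0.58, BTC at -0.49, ADAM10 at -0.68 and STAM2 at -0.54. The shares of all genes that rose or fell at any fold were worked out only for the reported fit. The any-fold counts of members under these alternatives therefore have no share to be read against. Leaving out 1 library at a time moved the member median between 0.51 and 0.70 and AREG between -0.32 and 0.000974. Libraries with the same replicate number did not deviate together (correlations -0.204, 0.176 and -0.0575), and with a replicate block there were 4626 up-regulated and 2827 down-regulated genes, with EGFR and NRG1 as the 2 members called. The block and no-filter fits had infinite prior degrees of freedom (8.32 in the reported fit), so their p-values are not given. The cause of these shifts was not tested. BTC and ERBB4 are limited by depth, with 25 or fewer parental counts in total.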
